A study of Homo sapiens with 6 samples.

Results

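The 10 genes described here were NFKB1, NFKB2, RELB, NFKBIA, NFKBIE, TNFAIP3, BIRC3, TNF, IL1B and ICAM1, chosen by symbol as feedback regulators and inflammatory targets of NF-kB. All 10 were among the 56305 gene symbols counted, and all 10 passed the filter on low counts that left 20399 genes for testing. RNA sequencing compared 3 libraries of MOLM13 cells given the vehicle DMSO with 3 libraries given 1 μM ZW27941, both for 24 h. MOLM13 is an acute myeloid leukemia cell line, labelled in both groups as carrying the FLT3-ITD mutation and the t(9;11)(p22;q23) translocation, and ZW27941 is a proteolysis-targeting chimera, a molecule that brings METTL3 to the VHL ubiquitin ligase for degradation. METTL3 is the catalytic subunit of the complex that writes m6A on mRNA. These libraries represent 1 cell line, 1 dose and 1 time.

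NF-kB is a family of transcription factors that is held inactive in the cytoplasm by IkB proteins. Signals from TNF, interleukin-1 or Toll-like receptors activate the IKK kinases, which mark IkB for destruction and release NF-kB to the nucleus. Among the genes it then switches on are its own subunits, the IkB inhibitors and the ubiquitin-editing enzyme TNFAIP3, which close the loop, and cytokines and adhesion molecules, which act on other cells. In monocytic cells this circuit drives the production of TNF and interleukin-1 beta.

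Promoter sequences are shown because they belong to the 4 genes that fell and to NFKBIA, the classical feedback inhibitor, which did not pass the test. Each line is the 250 bases before a RefSeq transcription start on GRCh38.p14, read 5′ to 3′ along the gene's strand. Capitals mark matches to GGAAANNCC on either strand, the reverse being GGNNTTTCC, a pattern close to the known NF-kB binding site that was written down after these windows had been read.
TNF: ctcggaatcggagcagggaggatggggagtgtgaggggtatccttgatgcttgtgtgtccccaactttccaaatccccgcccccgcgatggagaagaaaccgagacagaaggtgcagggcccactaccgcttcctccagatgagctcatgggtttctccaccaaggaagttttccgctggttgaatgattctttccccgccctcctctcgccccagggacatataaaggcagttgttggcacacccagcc
ICAM1: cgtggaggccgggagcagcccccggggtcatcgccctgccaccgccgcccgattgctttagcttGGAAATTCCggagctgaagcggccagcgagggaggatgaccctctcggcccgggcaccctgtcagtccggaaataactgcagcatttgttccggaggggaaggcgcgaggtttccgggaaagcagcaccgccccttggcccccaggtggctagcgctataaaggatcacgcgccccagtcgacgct
TNFAIP3: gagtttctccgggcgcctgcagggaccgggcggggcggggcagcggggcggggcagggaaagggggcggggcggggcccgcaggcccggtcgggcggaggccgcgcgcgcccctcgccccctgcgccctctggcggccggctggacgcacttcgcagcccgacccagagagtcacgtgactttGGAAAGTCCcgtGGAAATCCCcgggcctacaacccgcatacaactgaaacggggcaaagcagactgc
NFKB2: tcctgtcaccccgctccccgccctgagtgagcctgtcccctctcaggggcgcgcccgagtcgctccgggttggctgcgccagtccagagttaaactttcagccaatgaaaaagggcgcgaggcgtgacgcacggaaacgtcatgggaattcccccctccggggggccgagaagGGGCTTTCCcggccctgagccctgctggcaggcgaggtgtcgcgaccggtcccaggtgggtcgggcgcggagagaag
NFKBIA: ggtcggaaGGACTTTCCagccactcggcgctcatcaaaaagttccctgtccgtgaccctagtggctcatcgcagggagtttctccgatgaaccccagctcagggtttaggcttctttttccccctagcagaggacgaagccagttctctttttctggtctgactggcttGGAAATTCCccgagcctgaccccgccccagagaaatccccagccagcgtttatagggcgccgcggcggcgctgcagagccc
The TNF window lies at chr6:31575315-31575564, ICAM1 at chr19:10270870-10271119 and TNFAIP3 at chr6:137867009-137867258, all on the plus strand. The NFKB2 window, 1 of 3 listed for this gene, lies at chr10:102394328-102394577 on the plus strand, and that of NFKBIA at chr14:35404750-35404999 on the minus strand. NFKBIA and TNFAIP3 each held 2 matches and ICAM1 and this NFKB2 window 1 each, while the TNF window held 0. The pattern is only close to the binding site, so sites of another form would stay unmarked. A window with 0 matches is therefore not shown to lack a site. Of the other NFKB2 windows, the one directly before the annotated gene start (chr10:102393860-102394109) held 0 matches and the third (chr10:102395455-102395704) held 1. In ICAM1 the match began 186 bases before the start, in TNFAIP3 67 and 55 bases, in the NFKB2 window shown 77 bases and in NFKBIA 242 and 81 bases before it. Over the 11 windows listed for 8 of the genes, 7 (63.6%) held a match, against 5.48% of the 35116 promoters in the table, the pattern having been chosen with the windows in view. The windows with a match belonged to 6 genes, of which NFKB2, TNFAIP3 and ICAM1 fell on ZW27941 and NFKB1, NFKBIA and BIRC3 did not pass the test. RELB and NFKBIE had no entry in the table.

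On ZW27941, 4 of the 10 genes fell and 0 rose at the threshold of 0.05 (edgeR quasi-likelihood, p adjusted over all genes tested). TNF, ICAM1, NFKB2 and TNFAIP3 fell, by between 8.24% and 19.9% of their DMSO means, and in these 4 alone the libraries of the groups did not overlap, as in 41.6% of all genes tested. At an unadjusted p under 0.05 the quasi-likelihood test gave 1 gene higher, RELB, while DESeq2 and edgeR's exact test gave 0 higher. At the adjusted threshold DESeq2 and the exact test also called 0 higher and 4 lower. Among all genes tested, 30.1% were called in either direction, and among genes with a mean log2 CPM within the range of these 10 the share was 43.2%, so 4 of 10 called is near the background. Of all genes tested, 13.8% were called lower (18.5% within that range of levels) and 16.3% higher. With upper quartile normalization, 3643 of all genes were called lower and 2644 higher, against 2816 lower and 3333 higher with TMM normalization, and the same 4 of these 10 genes were lower under both. The median log2 fold change of the 10 genes was −0.018, beside −0.0019 for all genes tested. In bulk RNA, fewer cells expressing a gene and less RNA per cell cannot be told apart. The labels do not say whether the 3 libraries of a group came from separate cultures, so the p-values measure the spread between these libraries.

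**Figure D1:**
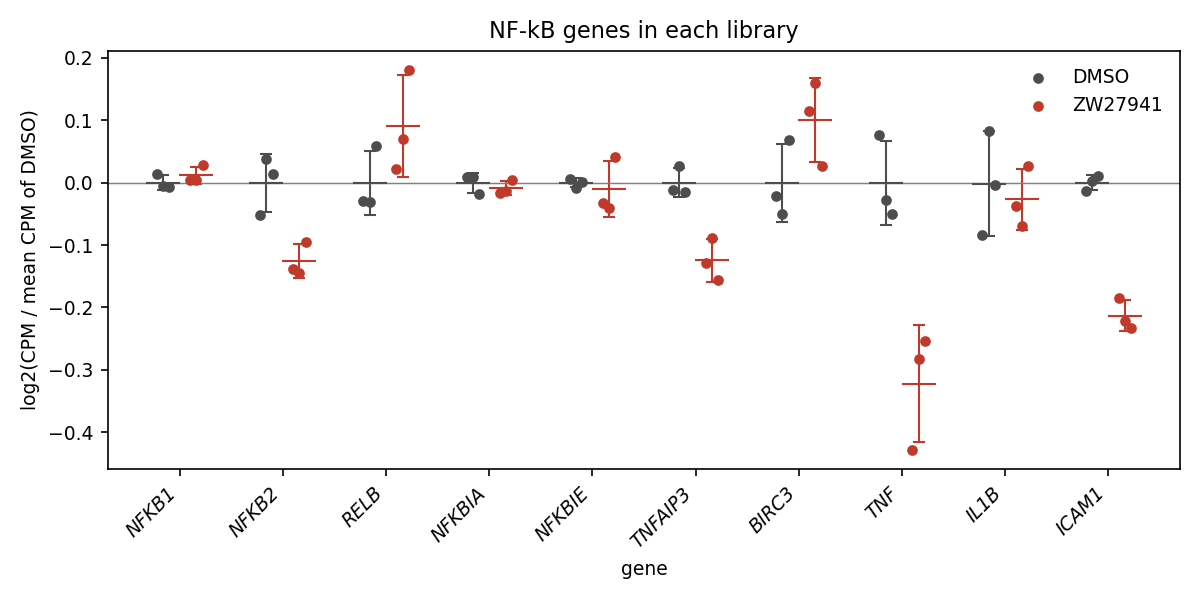
Each point is 1 library, as the log2 ratio of its CPM to the DMSO mean of that gene, with DMSO in grey and ZW27941 in red, and bars give the mean and SD of 3 libraries. The ZW27941 points lie below all DMSO points for NFKB2, TNFAIP3, TNF and ICAM1 and overlap them for the other 6 genes.

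Counts on genes ran from 143454176 to 153825333 per library in DMSO and from 143621822 to 178744976 on ZW27941, and each of the 10 genes had at least 568 counts in every library. METTL3 mRNA was at 122 ± 1.17 CPM in DMSO and 123 ± 4.96 CPM on ZW27941 (SD, n = 3), which is no check of the labels, since ZW27941 removes the protein. The 8 markers of an acute myeloid leukemia or monocytic line were all detected, with a summed level of 1492 to 1532 CPM in DMSO and 1550 to 1567 CPM on ZW27941. Of these, 4 were called higher (MPO, SPI1, PTPRC and CSF1R). Of 6 markers of T, B and NK cells 4 passed the filter, and CD3E and MS4A1 were not tested. Of those tested, 0 were called by edgeR's quasi-likelihood test, DESeq2 or edgeR's exact test, and at an unadjusted p under 0.05 the quasi-likelihood test gave 1 lower. The sums over all 6 markers ran from 60.9 to 62.5 CPM in DMSO and from 59.6 to 64.3 CPM on ZW27941, nearly all of it NKG7 (59.4 and 59.7 CPM). In a list of 8 erythroid, epithelial and stromal markers 4 passed the filter, and HBA1 and HBB were at 0 in every library. KRT18 was called lower and PECAM1 higher. The sums over this list were 276 to 286 CPM in DMSO and 342 to 350 CPM on ZW27941, most of it PECAM1 (259 and 327 CPM), which monocytic cells also express. The part of these shifts in the results on the NF-kB genes was not tested.

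NFKB1, NFKB2 and RELB encode subunits of NF-kB itself. NFKB1 (chr4:102501329-102617302, GENCODE v29 on GRCh38, as for the other genes) makes the precursor of the p50 subunit of the classical dimer, NFKB2 (chr10:102394110-102402529) the precursor of p52, and RELB (chr19:45001430-45038198) the partner of p52 in the alternative pathway. NFKB2 was at 62.8, 66.8 and 65.7 CPM in the 3 DMSO libraries and at 59.1, 58.9 and 60.9 CPM in the 3 ZW27941 libraries. Every ZW27941 library lay below every DMSO library. The log2 fold change was −0.13 (standard error, SE, 0.029, adjusted p = 0.00180, edgeR), a fall from 65.1 ± 2.08 to 59.6 ± 1.12 CPM (SD, n = 3).

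RELB had a higher mean on ZW27941 but did not pass the test. It was at 15.2, 15.2 and 16.2 CPM in DMSO and at 15.8, 16.3 and 17.6 CPM on ZW27941, so the groups overlapped. Its log2 fold change was 0.091 (SE 0.043, adjusted p = 0.112, edgeR), with a 95% interval from 0.0031 to 0.18. Over the 14 alternative fits its value was lowest without ZW27941 replicate 3, at 0.042 (adjusted p = 0.506, edgeR). It was highest without ZW27941 replicate 1, at 0.127 (adjusted p = 0.0516, edgeR). NFKB1 was at 77.1, 76.1 and 76.0 CPM in DMSO and at 76.6, 76.6 and 77.9 CPM on ZW27941, and the groups overlapped. Its log2 fold change of 0.012 (SE 0.025, adjusted p = 0.769, edgeR) had a 95% interval from −0.040 to 0.064, or −2.74% to 4.51%. With upper quartile normalization its value was −0.012.

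Of the other NF-kB subunits, RELA, the main activating subunit of the classical dimer, was at 57.3 ± 0.538 CPM in DMSO and 59.0 ± 1.41 CPM on ZW27941, and REL, its lymphoid and myeloid relative, at 19.6 ± 0.668 and 19.3 ± 2.57 CPM (SD, n = 3 each). Neither passed the test (adjusted p = 0.281 and 0.842, edgeR). REL was at 21.6, 19.8 and 16.6 CPM in the 3 ZW27941 libraries, against 19.7, 18.9 and 20.2 CPM in DMSO. Its log2 fold change of −0.019 was 0.0037 without DMSO replicate 3 and 0.079 without ZW27941 replicate 3, and its lowest value was −0.11, without ZW27941 replicate 1.

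NFKBIA and NFKBIE encode IkB-alpha and IkB-epsilon, which bind NF-kB dimers and return them to the cytoplasm. NFKBIA (chr14:35401511-35404749) was at 48.5, 48.4 and 47.5 CPM in DMSO and at 47.6, 47.7 and 48.3 CPM on ZW27941. The groups overlapped, and the log2 fold change of −0.0090 (SE 0.027, adjusted p = 0.838, edgeR) had a 95% interval of −4.38% to 3.29%. With library size as the only normalization its value was 0.0010. NFKBIE (chr6:44258166-44265788) was at 27.4, 27.1 and 27.3 CPM in DMSO and at 26.6, 26.5 and 28.0 CPM on ZW27941. The third ZW27941 library was the highest of all 6 and the other 2 were the lowest, and the log2 fold change was −0.010 (95% interval −5.12% to 3.91%, adjusted p = 0.843, edgeR). Its value was 0.0012 without ZW27941 replicate 1 and 0.0032 without ZW27941 replicate 2.

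Of the 6 subunits and IkB proteins outside the set, 1 fell and 0 rose at the adjusted threshold of 0.05 by the quasi-likelihood test, by DESeq2 and by edgeR's exact test, and at an unadjusted p under 0.05 each gave 1 lower and 1 higher. By the quasi-likelihood test 16.7% of this list was called, beside 30.1% of all genes tested. NFKBID, a nuclear IkB protein, fell from 20.0 ± 0.742 to 18.0 ± 0.412 CPM (SD, n = 3, log2 fold change −0.15, adjusted p = 0.00377, edgeR). NFKBIB, the third cytoplasmic IkB, was at 37.4 ± 0.958 and 36.3 ± 0.926 CPM (adjusted p = 0.304, edgeR).

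TNFAIP3 and BIRC3 encode enzymes that edit ubiquitin chains on the signalling complexes upstream of IKK. TNFAIP3 removes and adds chains so as to stop the signal, and BIRC3 is a ubiquitin ligase that sustains the classical pathway and restrains the alternative one. TNFAIP3 (chr6:137867188-137883312) was at 273, 280 and 272 CPM in DMSO and at 251, 259 and 247 CPM on ZW27941. All ZW27941 libraries lay below all DMSO libraries, and the log2 fold change was −0.12 (SE 0.025, adjusted p = 6.63e-04, edgeR), a fall of 8.24%. Its exons overlap those of AL357060.1 on the opposite strand by 95 bases, and whether the counting used strand is not given in the sources used here.

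BIRC3 (chr11:102317450-102339403) was at 3.96, 3.89 and 4.22 CPM in DMSO and at 4.35, 4.49 and 4.10 CPM on ZW27941. The third ZW27941 library lay within the DMSO range, and the log2 fold change of 0.10 (SE 0.071, adjusted p = 0.312, edgeR) had a 95% interval from −3.14% to 18.7%. BIRC2, its neighbour on the chromosome and close paralog, rose from 39.3 ± 1.27 to 48.4 ± 0.303 CPM (SD, n = 3), with libraries at 39.3, 38.1 and 40.6 CPM against 48.7, 48.1 and 48.5 CPM. The log2 fold change of BIRC2 was 0.30 (SE 0.029, adjusted p = 1.14e-07, edgeR), and the difference between the 2 paralogs was not tested.

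Ubiquitin editors as a list held 15 tested genes, of which 6 rose and 2 fell (adjusted p under 0.05, edgeR), with a median log2 fold change of 0.026. Of this list 53.3% was called, beside 30.1% of all genes tested and 43.2% of genes within the range of levels described above. Over all genes tested 16.3% were called higher and 13.8% lower. CYLD, a deubiquitinase that like TNFAIP3 ends the signal, rose from 81.9 ± 1.45 to 102 ± 3.28 CPM (SD, n = 3, log2 fold change 0.31, SE 0.028, adjusted p = 2.61e-08, edgeR). RBCK1, a subunit of the ligase that builds linear ubiquitin chains, fell from 90.8 ± 2.47 to 79.9 ± 1.72 CPM (log2 fold change −0.18, adjusted p = 2.35e-05, edgeR).

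TNF, IL1B and ICAM1 are the inflammatory products in the set. TNF (chr6:31575567-31578336) encodes tumor necrosis factor, the cytokine that activates NF-kB through its receptors. It was at 27.2, 25.3 and 24.9 CPM in DMSO and at 19.2, 21.2 and 21.6 CPM on ZW27941. The highest ZW27941 library lay below the lowest DMSO library, and the mean fell by 19.9%, from 25.8 ± 1.22 to 20.7 ± 1.32 CPM (SD, n = 3). Its log2 fold change of −0.32 (SE 0.042, adjusted p = 5.17e-06, edgeR) was the largest in size of the 10 genes, with a 95% interval from −0.41 to −0.23.

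ICAM1 (chr19:10270835-10286615) encodes an adhesion molecule that binds leukocyte integrins. It was at 80.9, 81.9 and 82.3 CPM in DMSO and at 71.8, 70.1 and 69.6 CPM on ZW27941. Every ZW27941 library lay below every DMSO library, and the spread within each group was small beside the gap between them. The mean fell by 13.7%, from 81.7 ± 0.698 to 70.5 ± 1.20 CPM (SD, n = 3), a log2 fold change of −0.21 (SE 0.026, adjusted p = 1.77e-06, edgeR). Its exons overlap those of AC011511.2 and AC011511.5 on the opposite strand, by up to 815 bases, so without strand the reads of these genes cannot be told apart.

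IL1B (chr2:112829751-112836903) encodes interleukin-1 beta, a secreted cytokine made as an inactive precursor. It was at 6.60, 7.41 and 6.98 CPM in DMSO and at 6.82, 6.67 and 7.13 CPM on ZW27941. The groups overlapped, and its log2 fold change of −0.026 (SE 0.061, adjusted p = 0.788, edgeR) had a 95% interval from −10.0% to 7.15%. Without DMSO replicate 2 its value was 0.018.

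**Figure D2:**
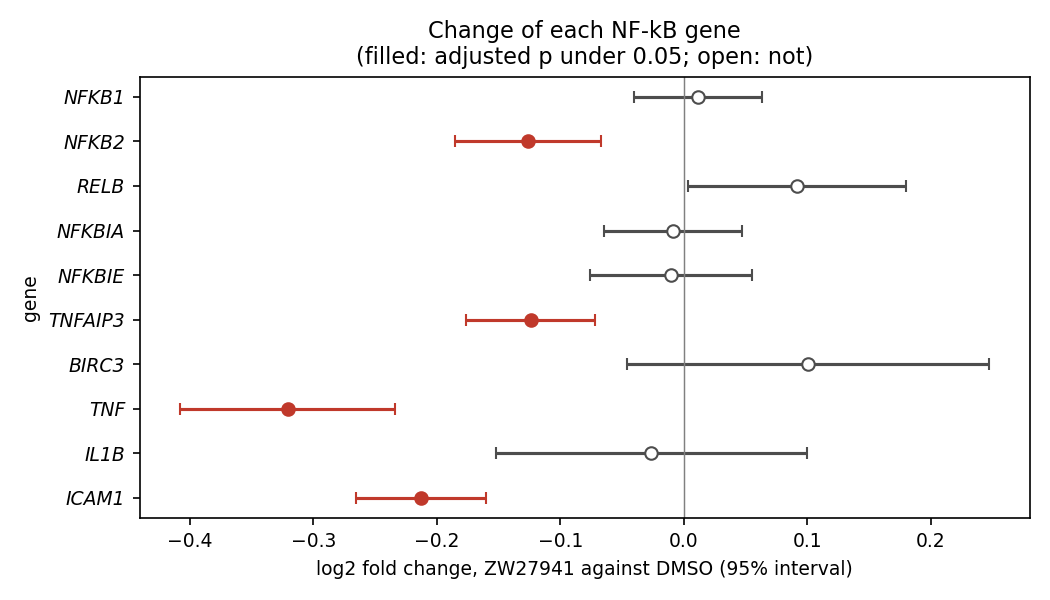
The log2 fold change of each gene on ZW27941 against DMSO is plotted with its 95% interval, filled and red where the adjusted p was under 0.05 and open otherwise. The values run from −0.32 for TNF to 0.10 for BIRC3, and the intervals of the 4 filled genes lie wholly below 0.

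Levels were compared between the genes as CPM per kb of the longest annotated transcript, a scale that allows for gene length. On this scale TNFAIP3 was the most abundant in DMSO, at 58.0 ± 0.922 CPM per kb, followed by NFKBIA at 30.9 ± 0.339, ICAM1 at 25.1 ± 0.215, NFKB2 at 19.1 ± 0.610 and NFKB1 at 18.7 ± 0.152 CPM per kb (SD, n = 3). TNF followed at 15.4 ± 0.729 CPM per kb, then NFKBIE at 10.6 ± 0.0528, RELB at 6.76 ± 0.245, IL1B at 4.29 ± 0.249 and BIRC3 at 0.774 ± 0.0336 CPM per kb. Neighbours in this order did not overlap between their DMSO libraries, except NFKB2 and NFKB1. On ZW27941 that pair was in the other order and its libraries no longer overlapped, with NFKB1 at 18.9 ± 0.179 and NFKB2 at 17.5 ± 0.329 CPM per kb (SD, n = 3). The other 8 genes kept their places. This order, and the switch of NFKB1 and NFKB2, hold for the longest transcript only and depend on the length used. The exons of NFKB1 together cover 6257 bases against 4085 in its longest transcript, and those of NFKB2 4484 against 3416.

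**Figure D3:**
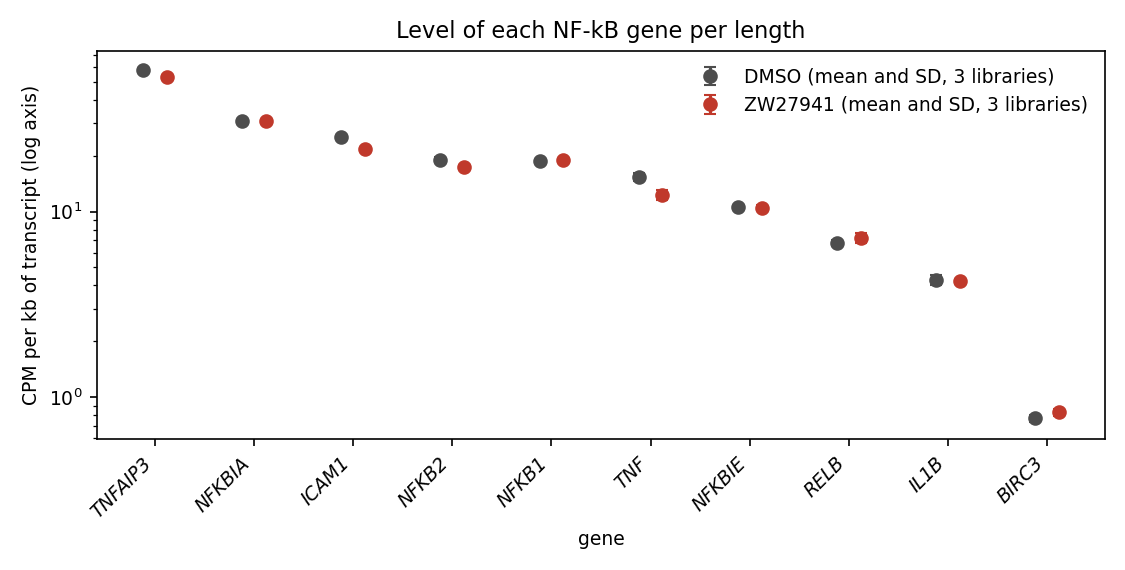
The level of each gene is given as CPM per kb of its longest transcript on a log axis, with the mean and SD of 3 libraries for DMSO in grey and ZW27941 in red. Levels run from 0.774 CPM per kb for BIRC3 to 58.0 CPM per kb for TNFAIP3 in DMSO, and the error bars are mostly smaller than the symbols.

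Letters of known regulatory elements were counted in the longest transcripts, since METTL3 methylates adenosine in a short motif of which GGACT is a frequent form, and since ATTTA is the core of the AU-rich elements that shorten the life of cytokine mRNAs. A transcript was matched for all 10 genes and for 77.4% of the 20399 genes tested, so the medians given for comparison cover the matched genes only. GGACT occurred 0.385 times per kb in BIRC3 and 2.57 times per kb in NFKBIA, the ends of the range, and 6 of the 10 genes were above the median of 0.901 per kb. Among the genes that fell, the density was 2.34 per kb in NFKB2, 2.11 in TNFAIP3, 1.23 in ICAM1 and 0.597 in TNF. ATTTA occurred 9 times in TNF, or 5.37 times per kb, 6 times in IL1B (3.68 per kb), 17 times in BIRC3 (3.27 per kb) and 3 times in NFKBIA (1.93 per kb), all above the upper quartile of 1.90 per kb. NFKBIE and RELB held 0. The ranges of both densities overlapped between the 4 genes that fell and the other 6.

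Among the other inflammatory target genes, 31 of 40 listed passed the filter, and 14 fell while 4 rose (adjusted p under 0.05, edgeR), with a median log2 fold change of −0.15. Over all genes tested 13.8% were lower and 16.3% higher, with a median of −0.0019. This list was written from textbook knowledge of NF-kB targets with earlier results of these data known, so its count is a description and no independent evidence of a direction. The 3 with the lowest p were SOD2, a mitochondrial superoxide dismutase, CCL5, a chemokine, and GADD45B, a stress protein. SOD2 was at 163, 157 and 159 CPM in DMSO and at 134.5, 134.6 and 134.3 CPM on ZW27941, a log2 fold change of −0.25 (adjusted p = 1.16e-07, edgeR). CCL5 fell from 101 ± 3.17 to 82.0 ± 3.99 CPM and GADD45B from 83.9 ± 1.86 to 71.3 ± 1.61 CPM (SD, n = 3).

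The chemokine genes CCL20, CXCL8 and CCL3 had the largest changes among the called genes of that list. CCL20 had 223, 248 and 277 counts in DMSO and 184, 136 and 150 counts on ZW27941, or 1.67 ± 0.130 and 0.967 ± 0.0461 CPM (SD, n = 3), a log2 fold change of −0.79 (SE 0.11, adjusted p = 7.33e-06, edgeR). CXCL8 went from 1.20 ± 0.0937 to 0.727 ± 0.0678 CPM, a log2 fold change of −0.72 (SE 0.12). CCL3 went from 7.35 ± 0.155 to 5.43 ± 0.311 CPM, a log2 fold change of −0.44. The 4 that rose, named after their values had been seen, were MMP9 (log2 fold change 0.32), PTX3 (0.21), CFLAR (0.21) and TNFSF10 (0.18). CFLAR encodes an inhibitor of death receptor signalling and was at 112 ± 0.623 and 130 ± 6.42 CPM (SD, n = 3).

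Of LTA and LTB, the lymphotoxin genes next to TNF, LTB was called and LTA was not, and the difference between them was not tested. LTB was at 9.95, 10.3 and 9.95 CPM in DMSO and at 8.05, 8.15 and 9.50 CPM on ZW27941, below all DMSO libraries, with a log2 fold change of −0.23 (SE 0.059, adjusted p = 0.00408, edgeR). LTA was at a low level, with 100, 76 and 70 counts in DMSO and 72, 61 and 67 on ZW27941 (log2 fold change −0.42, SE 0.18, adjusted p = 0.0919, edgeR). Without DMSO replicate 3 the adjusted p of LTA was 0.0498, and without DMSO replicate 1 it was 0.450, with a log2 fold change of −0.22.

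The genes for processing interleukin-1 beta moved in both directions, with 2 of 9 tested higher and 3 lower (adjusted p under 0.05, edgeR). Together 55.6% were called, beside 30.1% of all genes tested and 43.2% within the range of levels of the 10 genes. NLRP3, among the 3 lower and named after its value had been seen, was also counted among the other inflammatory target genes that fell. CASP1, the protease that cleaves the precursor, fell from 39.7 ± 0.888 to 33.2 ± 0.738 CPM (SD, n = 3, log2 fold change −0.26, adjusted p = 1.28e-06, edgeR). GSDMD, which forms the pores through which the cytokine leaves the cell, rose from 31.5 ± 1.03 to 38.7 ± 1.27 CPM (log2 fold change 0.30, adjusted p = 5.21e-07, edgeR). PYCARD, the adaptor of the inflammasome, rose from 101 ± 1.14 to 113 ± 4.85 CPM (log2 fold change 0.17). IL1RN, the receptor antagonist, which was counted with the receptors, fell from 35.3 ± 0.545 to 32.7 ± 0.981 CPM (adjusted p = 0.00918, edgeR), which was 0.0524 without DMSO replicate 3 and 0.0580 without ZW27941 replicate 1. IL1A, with 4 to 19 counts per library, did not pass the filter.

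Receptors and adaptors split evenly, with 7 of 25 higher and 7 lower (adjusted p under 0.05, edgeR) and a median log2 fold change of 0.010. The share called was 56%, beside 30.1% of all genes tested and 43.2% of genes within the range of levels described above. All genes tested were also near an even split, with 16.3% called higher and 13.8% lower. TNFRSF1B, a TNF receptor, fell from 162 ± 6.87 to 146 ± 0.653 CPM (SD, n = 3, log2 fold change −0.15), and TRAF1, an adaptor and NF-kB target, from 8.39 ± 0.350 to 6.35 ± 0.456 CPM (log2 fold change −0.40). TNFRSF1A, the other TNF receptor, named after its value had been seen, was at 92.0 ± 0.707 and 92.7 ± 1.41 CPM (adjusted p = 0.794, edgeR). TLR4, the receptor for bacterial lipopolysaccharide, rose from 3.27 ± 0.268 to 4.35 ± 0.227 CPM (log2 fold change 0.41), and MYD88, the adaptor below it, from 45.2 ± 0.718 to 50.4 ± 1.22 CPM (log2 fold change 0.16). CD14, which passes lipopolysaccharide to TLR4, fell from 1.54 ± 0.174 to 1.17 ± 0.109 CPM (adjusted p = 0.0112, edgeR), which was 0.0723 without DMSO replicate 1 and 0.0606 without ZW27941 replicate 1.

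In the IKK complex and the kinases above it, 3 of 12 genes were higher and 1 was lower (adjusted p under 0.05, edgeR), with log2 fold changes from −0.11 to 0.13. The 33.3% called is near the 30.1% of all genes tested. CHUK, IKBKB and IKBKG, the 3 subunits of IKK, named after their values had been seen, were not called, at 29.6 ± 1.12 and 29.4 ± 0.963 CPM, 213 ± 5.90 and 207 ± 3.90 CPM, and 9.44 ± 0.329 and 10.3 ± 0.493 CPM (SD, n = 3). TAB1, a partner of the kinase MAP3K7, fell from 66.0 ± 1.72 to 61.2 ± 1.51 CPM (log2 fold change −0.11, adjusted p = 0.00506, edgeR). TAB3, another partner, had a log2 fold change of 0.12 (adjusted p = 0.00776, edgeR, and 0.0616 without ZW27941 replicate 1). MAP3K7 had a log2 fold change of 0.088 (adjusted p = 0.0148, edgeR), and its adjusted p was 0.0718 with upper quartile normalization, 0.0577 without DMSO replicate 1, 0.0630 without DMSO replicate 2 and 0.118 without ZW27941 replicate 2.

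**Figure D4:**
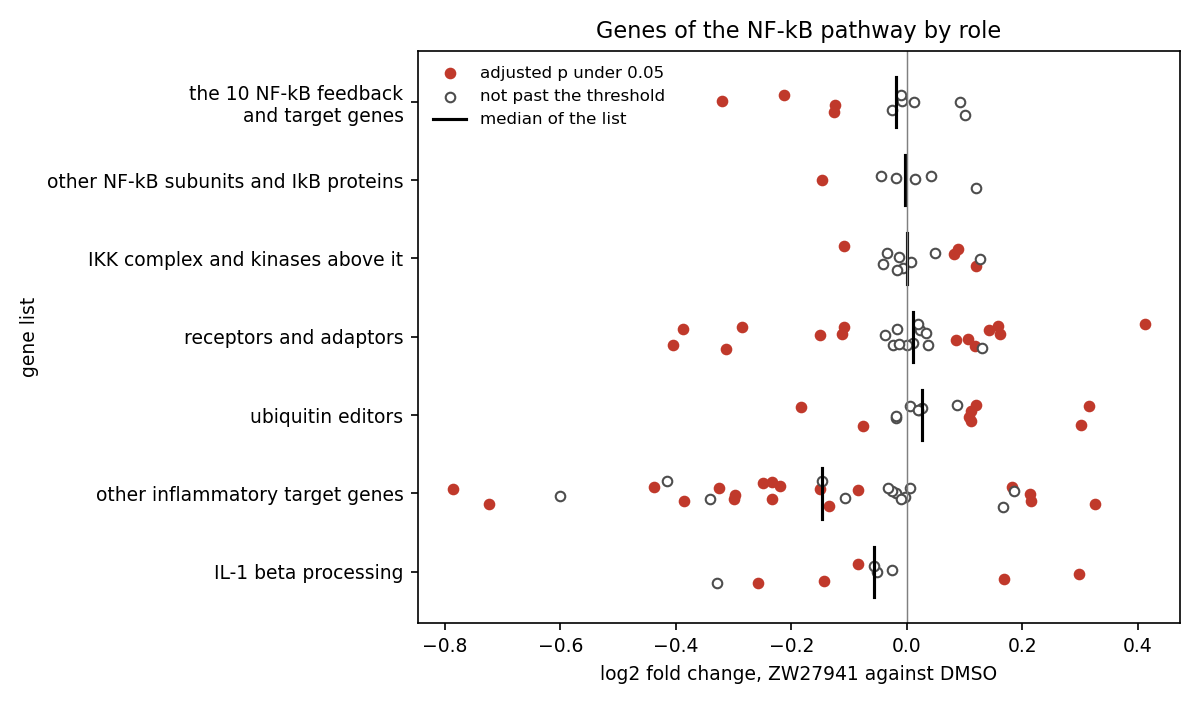
Each point is the log2 fold change of 1 gene on ZW27941 against DMSO, red where the adjusted p was under 0.05 and open otherwise, with a black line at the median of its list. NLRP3 is drawn under both the other inflammatory target genes and interleukin-1 beta processing. The median of the other inflammatory target genes is at −0.15, and those of the other 5 pathway lists and of the 10 genes lie between −0.056 and 0.026.

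Over all 97 other pathway genes tested, each counted once, 22 were higher and 27 lower (adjusted p under 0.05, edgeR), with a median log2 fold change of −0.017. That was 50.5% called, beside 30.1% of all genes tested and 43.2% within the range of levels of the 10 genes. The lists were written with earlier results of these data known, so these shares are descriptions only. Likeness to TNF, the gene with the largest change of the 10, was measured over the 6 libraries as the root mean square difference in log2(CPM + 0.5), each gene taken against its DMSO mean. By this measure the closest genes were CD14 (0.051), CCL5 (0.062) and IRAK2 (0.072), an adaptor kinase of interleukin-1 and Toll-like receptors. With nothing added to CPM, an alternative chosen after seeing the data, CCL5 (0.063) and IRAK2 (0.065) were closest and CD14 (0.084) ranked 6, so the place of CD14, the lowest of these in level, rests on the added value. IRAK2 itself was at 4.41, 4.60 and 4.37 CPM in DMSO and at 3.46, 3.88 and 3.66 CPM on ZW27941.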

How the data were processed

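RNA was sequenced from MOLM13 cells treated with DMSO or ZW27941, 3 libraries each. The deposited values are raw counts per gene symbol, not normalized or filtered, which the authors made with HTSeq 2.0.3 after alignment with HISAT2 and SAMtools 1.19.2 on hg38, per the submitters' processing notes. The annotation and strand setting are not given in the sources used here. Reads tallied to no gene, 37.4% to 39.8% of each library, were left out. The tallied reads per library exceed the raw reads per sample that the labels state.

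The comparison was fitted with edgeR 4.0.16 in R 4.3.3 (TMM, filterByExpr, quasi-likelihood test, Benjamini-Hochberg adjustment over 20399 genes, threshold 0.05). Standard errors are the absolute log2 fold change over the square root of F. CPM used TMM factors. Replicate pairs differed by more than counting noise (chi-square per degree of freedom 5.05 to 14.1). Intervals cover the spread between these libraries only. Alternatives were RLE, upper quartile and no normalization beyond library size, DESeq2 1.42.0, edgeR's exact test, 2 other filters, a replicate block and each library left out. Steps were tested on simulated data. Gene models came from GENCODE v29 and promoters from RefSeq on GRCh38.p14, which share hg38 coordinates. The members and lists were chosen with earlier results of these data known. Named genes were the 10, up to 3 called genes per pathway list with the lowest p and up to 3 with the largest change, partners and paralogs of the 10, METTL3, and the 3 genes most like TNF.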

Additional observations from a re-analysis of the deposited data

How the results depend on the processing

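In all 14 alternative fits (8 other normalizations, tests, filters and the block, and 6 that each left out a library), 4 of the 10 genes were called lower and 0 higher, and TNF, ICAM1, NFKB2 and TNFAIP3 were called in each of them. Their log2 fold changes ran from −0.36 to −0.27 for TNF, from −0.24 to −0.20 for ICAM1, from −0.15 to −0.11 for NFKB2 and from −0.15 to −0.11 for TNFAIP3. The direction of 4 genes that were not called altered: NFKB1 (−0.012 with upper quartile normalization), NFKBIA (0.0010 with library size only), IL1B (0.018 without DMSO replicate 2, and from −0.066 to 0.018 over the fits without 1 library) and NFKBIE (0.0012 and 0.0032 without ZW27941 replicates 1 and 2, and from −0.039 to 0.0032 over the fits without 1 library). The cause was not tested. Other pathway genes called numbered 40 to 49 over these fits, and all genes called 4836 to 6287. The deviations of same-numbered libraries correlated at −0.0099, 0.0031 and 0.043 across genes, and those of differently numbered libraries at −0.049 to 0.051. These values gave no sign of pairing by number, but cannot exclude a weak one. With the replicate block, 4 of the 10 genes and 6010 of all genes were called.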
